A study of Mus musculus with 8 samples.

Results

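The 10 genes described here encode the enzymes, the transporter and the receptors of the prostaglandin pathway, and they were chosen by name from the 54665 annotated genes kept from the deposited tables. They are Ptgs1, Ptgs2, Ptges, Ptges2, Ptgis, Ptgds, Slco2a1, Hpgd, Ptger2 and Ptger4, and all 10 were among the 16855 genes with a mean level of at least 1 TPM that entered the tests. TPM, an abundance that divides the reads of a gene by its length and scales each library to a common total, is used throughout, so levels can be compared between genes.

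RNA was sequenced from the colon of BALB/cA mice, either wild type or DCIR-/-, in 8 libraries, 1 for each combination of genotype and stage. DCIR is an inhibitory C-type lectin receptor of myeloid cells, encoded by Clec4a2. Besides steady state, tissue was taken on day 12 after DSS (dextran sulfate sodium, an irritant of the colon lining) and on day 112 after azoxymethane followed by DSS (AOM-DSS), which gives rise to colon tumours. At day 112 non-polyp and polyp tissue were profiled separately. The labels give neither age nor sex, nor the number of animals behind a library. The series' design text counts 5 colon samples, whereas 8 libraries are listed.

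Depth was even, at 2.697 to 3.351 aligned gigabases per library, with 15981 to 16990 genes at 1 TPM or more, and all 10 absorptive colonocyte markers were detected in every library. Clec4a2 lay between 2.74 and 4.33 TPM in the wild-type libraries, was listed at 0 in 3 libraries labelled knockout, and was at 0.659 TPM in the library labelled knockout steady state. The library labelled knockout non-polyp stood close to the knockout polyp library, with 484 of the 16855 genes (2.87%) at least 2-fold apart, whereas wild-type polyp and non-polyp were that far apart in 3191 genes (18.9%). Its genotype and tissue are therefore given below only as labelled, and each tested comparison is also given without it. Every library of steady state and DSS held transcripts of male accessory glands, with the summed level of a list of 10 such genes at 5079 to 8648 TPM, against 396 to 1014 TPM in the day 112 libraries, where Pbsn, Svs2, Svs5, Msmb and Defb50 were listed at 0 in all 4. A difference between day 112 and the earlier stages therefore cannot be told apart from that difference in tissue or sex.

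Prostaglandins are lipid signals made on demand from arachidonic acid, which phospholipases release from membranes. The cyclooxygenases COX-1 (Ptgs1), present in many tissues at rest, and COX-2 (Ptgs2), which is induced by injury and growth signals, turn arachidonic acid into a common precursor, and terminal synthases make PGE2, prostacyclin or PGD2 from it. PGE2 acts on receptors such as EP2 and EP4, and it is removed by uptake through the transporter encoded by Slco2a1 and oxidation by 15-hydroxyprostaglandin dehydrogenase (Hpgd), an enzyme of the differentiated colon epithelium that is known to be reduced in colorectal tumours.

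Ptgs2 and Hpgd, which make and destroy PGE2, differed most between stages among the members that lay above 10 TPM in any polyp library, in opposite directions, so the DNA around their starts is shown. Each window runs from 250 bases before to 30 bases after the RefSeq start on GRCm38.p6, on the forward strand, at chr1:150099781-150100060 for Ptgs2 and chr8:56294302-56294581 for Hpgd. RefSeq promoters matched 9 of the 10 members. Capitals mark matches to 5 motifs searched on both strands: the C/EBP site TTNCGCAA, the E-box CACGTG, the half-site TGACG of a cyclic AMP response element, the TCF/LEF site CTTTGNT and the TATA box TATAAA.
Ptgs2: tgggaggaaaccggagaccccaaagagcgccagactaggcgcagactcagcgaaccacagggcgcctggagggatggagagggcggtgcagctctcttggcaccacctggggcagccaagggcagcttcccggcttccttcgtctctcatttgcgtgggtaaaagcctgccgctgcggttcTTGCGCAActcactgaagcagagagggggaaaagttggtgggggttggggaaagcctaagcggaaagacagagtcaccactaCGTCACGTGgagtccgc
Hpgd: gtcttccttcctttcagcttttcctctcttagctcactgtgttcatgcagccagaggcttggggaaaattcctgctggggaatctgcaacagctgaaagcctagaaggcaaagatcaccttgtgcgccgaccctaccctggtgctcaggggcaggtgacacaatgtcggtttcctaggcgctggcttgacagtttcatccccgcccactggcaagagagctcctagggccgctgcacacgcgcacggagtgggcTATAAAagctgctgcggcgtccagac
The Ptgs2 window held the C/EBP site at bases 182 to 189, a match found in 0.758% of the 32851 promoter windows of the same length. It also held the E-box at bases 267 to 272, found in 6.79% of windows, which overlaps a TGACG half-site on the opposite strand at bases 264 to 268, found in 19.9%. The Hpgd window held a match to TATAAA at bases 255 to 260, found in 13.1% of windows. By the RefSeq start used, this match and the E-box and half-site of Ptgs2 lie after the start. The C/EBP site lies before it. The authors' tool also assembled loci from the reads in 6 libraries. In these, the locus overlapping Hpgd most began at chr8:56294585, past the end of the window, so the TATAAA match lies before that start. CTTTGNT, found in 17.6% of windows, was in neither. These letters describe the windows, and binding was not measured.

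The polyp libraries combined high Ptgs2 with low Hpgd. Ptgs2, which encodes COX-2, lay at 3.84 TPM for wild type and 3.42 TPM in the library labelled knockout at steady state. After DSS it was at 3.36 TPM for wild type and 2.05 TPM in knockout. In non-polyp tissue it was at 6.43 TPM for wild type and 85.6 TPM in the library labelled knockout, and in polyps at 25.3 TPM for wild type and 59.6 TPM in knockout. Both polyp libraries and the library labelled knockout non-polyp therefore lay above all others, and the DSS libraries showed no higher level than steady state. Wild-type polyp was 3.94-fold above wild-type non-polyp tissue and 6.59-fold above wild-type steady state.

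Hpgd, which inactivates PGE2, was the most abundant of the 10 transcripts in every steady-state and DSS library and in wild-type non-polyp and polyp tissue. It lay at 213 TPM for wild type and 165 TPM in the library labelled knockout at steady state, and at 136 TPM for wild type and 201 TPM in knockout after DSS. In wild-type non-polyp tissue it was still at 174 TPM, whereas the library labelled knockout non-polyp was at 19.7 TPM. Wild-type polyp was at 40.6 TPM and knockout polyp at 18.7 TPM. The 2 polyp libraries and the library labelled knockout non-polyp were lower than all others. Wild-type polyp held 23.3% of the level of wild-type non-polyp tissue, a 4.29-fold difference, and knockout polyp was 8.85-fold below the library labelled knockout steady state.

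Set against each other, Hpgd exceeded Ptgs2 by 55.4-fold at wild-type steady state, by 40.5-fold in wild-type DSS and by 27.1-fold in wild-type non-polyp tissue. In wild-type polyp the ratio was 1.60, and in knockout polyp it was 0.314. It was 48.4 in the library labelled knockout steady state, 97.9 in knockout DSS and 0.230 in the library labelled knockout non-polyp. The ratio was thus above 1 in wild-type polyp and below 1 in knockout polyp, with 1 library on each side.

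**Figure D1:**
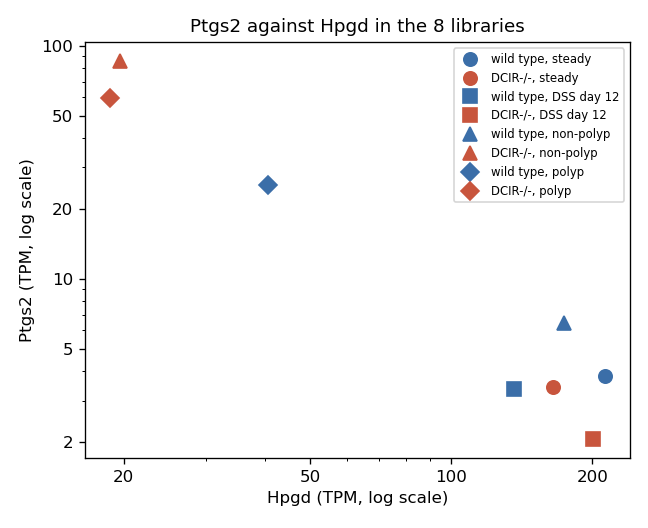
Level of Ptgs2 (vertical axis) against Hpgd (horizontal axis) in TPM on log scales, 1 point per library, coloured by genotype as labelled and shaped by stage. The 2 polyp libraries and the library labelled knockout non-polyp sit at upper left, with Ptgs2 at 25.3 TPM or more and Hpgd at 40.6 TPM or less, and the other 5 at lower right.

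Ptgs1, the gene of COX-1, varied far less. It lay at 21.0 TPM for wild type and 32.0 TPM in the library labelled knockout at steady state, and at 25.4 TPM and 27.2 TPM for wild type and for knockout after DSS. Wild-type non-polyp tissue held the highest level, 40.5 TPM, and the library labelled knockout non-polyp the lowest, 15.2 TPM. Wild-type polyp was at 18.2 TPM and knockout polyp at 17.1 TPM, both below every steady-state and DSS library, by a small margin for wild type. Ptgs1 exceeded Ptgs2 by 5.47-fold at wild-type steady state and by 6.29-fold in wild-type non-polyp tissue, but the ratio was 0.721 in wild-type polyp and 0.287 in knockout polyp, so COX-2 transcript was the more abundant of the 2 in polyps.

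Neither PGE2 synthase gene among the members was higher in every library of high Ptgs2 than in all others. Ptges encodes the inducible microsomal PGE synthase that is often coupled to COX-2. It lay at 11.9 TPM for wild type and 15.1 TPM in the library labelled knockout at steady state, and at 11.9 TPM and 8.92 TPM for wild type and for knockout after DSS. Non-polyp tissue was at 7.55 TPM for wild type and 14.7 TPM in the library labelled knockout, and polyps at 14.1 TPM for wild type and 15.3 TPM in knockout. Wild-type polyp was 1.86-fold above wild-type non-polyp tissue but only 1.18-fold above steady state, and knockout polyp was 1.02-fold above the library labelled knockout steady state. Within day 112, Ptges and Ptgs2 were both lowest in wild-type non-polyp tissue. Ptges2, which encodes a second, constitutive PGE synthase, ranged from 10.7 TPM in knockout polyp to 15.3 TPM in wild-type non-polyp tissue. Its assembled locus in wild-type polyp was at 19.4 TPM against 10.8 TPM in the annotated row, which turns the log2 difference from wild-type non-polyp tissue from -0.46 to 0.325 and that from steady state from -0.34 to 0.450.

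Of the synthases of other prostanoids, Ptgis was lower and Ptgds higher in polyps. Ptgis, which makes prostacyclin in vessel and smooth muscle cells, lay at 10.3 TPM for wild type and 15.5 TPM in the library labelled knockout at steady state. It was at 10.2 TPM and 8.63 TPM for wild type and for knockout after DSS, and at 12.0 TPM in wild-type non-polyp tissue. Wild-type polyp was at 2.58 TPM, knockout polyp at 1.37 TPM and the library labelled knockout non-polyp at 0.751 TPM, all 3 below the other 5. Wild-type polyp was 4.64-fold below wild-type non-polyp tissue in the annotated rows. The loci that the authors' tool assembled from the reads gave Ptgis 4.18 TPM in wild-type polyp, 6.54 TPM in knockout polyp and 4.14 TPM in the library labelled knockout non-polyp, so the size of the difference depends on which table is read, and so does its order between genotypes in polyps. These loci have unlike spans. On chromosome 2 they end at 167240604 in wild-type polyp, 167221338 in knockout polyp and 167221253 in the library labelled knockout non-polyp.

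Ptgds, the lipocalin-type synthase of PGD2, was below 1 TPM in every steady-state and DSS library. It lay at 0.0650 TPM for wild type and 0.200 TPM in the library labelled knockout at steady state, at 0.0528 TPM and 0.0674 TPM for wild type and for knockout after DSS, and at 0.181 TPM in wild-type non-polyp tissue. Wild-type polyp was at 3.09 TPM, knockout polyp at 3.79 TPM and the library labelled knockout non-polyp at 4.57 TPM. No assembled locus matched Ptgds in the 3 libraries under 1 TPM that list such loci, where its mean coverage was 0.0898 to 0.272 per base, so ratios to these low values are imprecise.

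Slco2a1, the prostaglandin uptake transporter, was low at day 112 in non-polyp and polyp tissue alike. It lay at 19.9 TPM for wild type and 25.8 TPM in the library labelled knockout at steady state, and at 21.7 TPM and 24.1 TPM for wild type and for knockout after DSS. At day 112 it was at 6.62 TPM in wild-type non-polyp tissue, 7.56 TPM in the library labelled knockout non-polyp, 5.28 TPM in wild-type polyp and 8.61 TPM in knockout polyp. All 4 libraries of day 112 were below all 4 earlier ones, and wild-type non-polyp tissue, in which Hpgd was at 81.9% of its steady-state level, was 3.01-fold below steady state. The sum of the accessory gland list split the libraries the same way, as given above, and its part in the Slco2a1 difference was not tested.

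The assembled loci of Slco2a1 also differed. At steady state they began at 102988802 in wild type and 102988798 in the library labelled knockout on chromosome 9, close to the upstream limit of the annotated gene at 102988712, and reached 28.6 and 39.0 TPM. In all 4 day 112 libraries they began at 103008002 and stayed between 5.35 and 8.63 TPM. The DSS files list no assembled loci, so the start could not be read there.

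**Figure D2:**
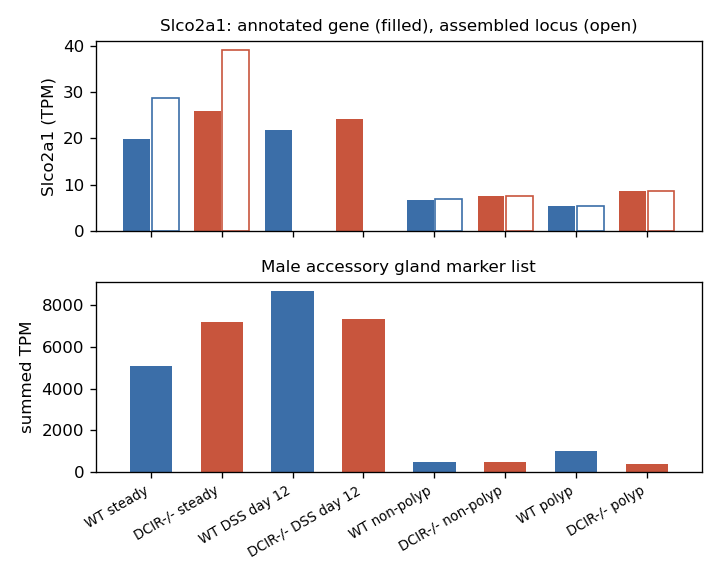
Top, level of Slco2a1 in TPM in each library, from the annotated row (filled bars) and from the assembled locus (open bars, not listed in the DSS files). Bottom, summed TPM of the 10 male accessory gland marker genes in the same libraries, showing that both are high in the 4 steady-state and DSS libraries and low in the 4 of day 112.

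Neither EP receptor gene differed 2-fold in any pair on the log2(TPM + 1) scale. Ptger4, encoding EP4, lay at 18.6 and 16.7 TPM at steady state in wild type and the library labelled knockout, at 14.6 and 12.4 TPM after DSS in wild type and knockout, and at 21.3 and 19.3 TPM in non-polyp tissue as labelled. Wild-type polyp was at 13.0 TPM and knockout polyp at 16.1 TPM, both within the span of the earlier stages. Ptger2, encoding EP2, stayed between 0.951 TPM in wild-type polyp and 2.67 TPM in wild-type non-polyp tissue, and Ptger4 exceeded it by 7.21-fold to 17.8-fold. Ptger4 overlaps Ttc33 on the opposite strand and Ptger2 overlaps antisense genes, and whether counting used strand is not given, so reads of these partners may be included.

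**Figure D3:**
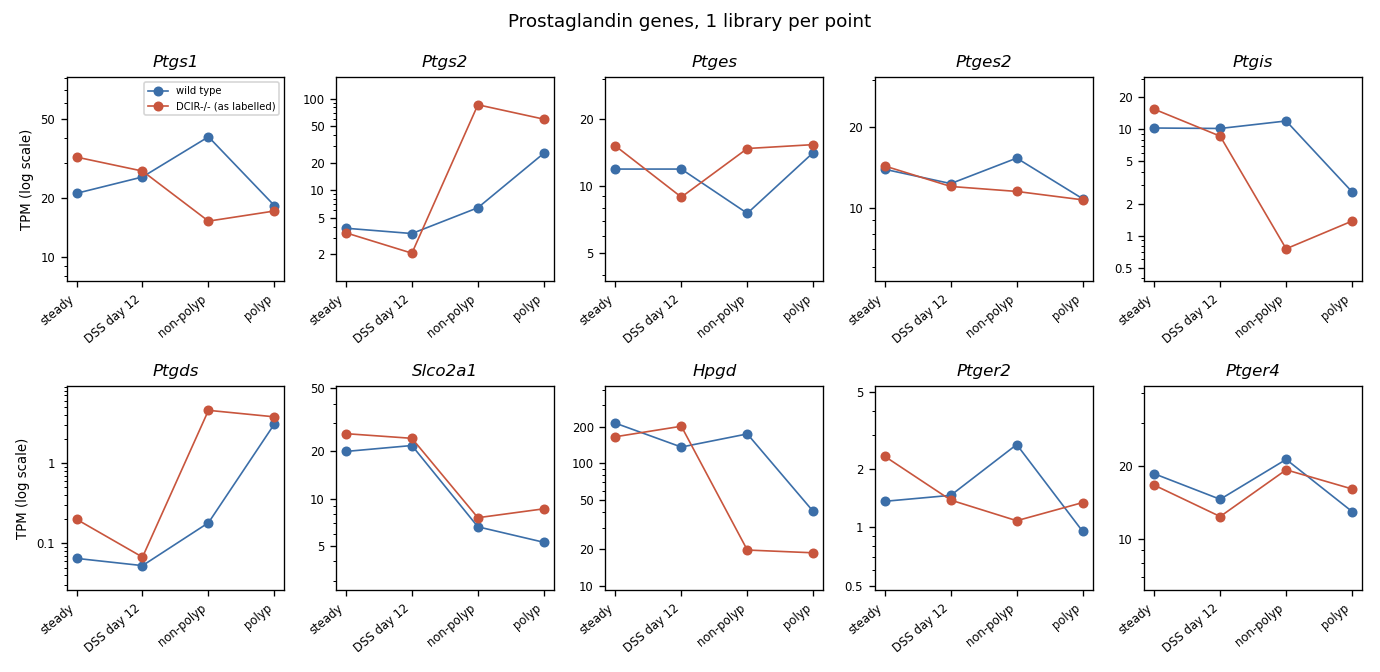
Level of each of the 10 genes in TPM (vertical axis, log scale, its range set per gene) at the 4 stages, 1 library per point, coloured by genotype as labelled. Lines join libraries of 1 genotype and do not follow an animal. Ptgs2 and Ptgds are highest, and Hpgd and Ptgis lowest, in the 2 polyp libraries and the library labelled knockout non-polyp.

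The effect of stage was tested with limma on log2(TPM + 1) in a model with stage and genotype over all 8 libraries, with Benjamini-Hochberg adjustment over all 16855 genes. Since each group has 1 library, the error comes from how far the genotypes depart from a common stage effect, and nothing says whether that spread is between animals. For polyp minus steady state, 0 of the 10 members passed an adjusted p of 0.05, against 0.819% of all genes, and 5 members had an unadjusted p under 0.05, against 30.5% of all genes. Ptgs2 was 3.11 ± 0.95 higher on the log2 scale (SE, 2 libraries per stage, limma adjusted p = 0.104), higher in polyp in both genotypes. Hpgd was lower, at -2.72 ± 0.79 (adjusted p = 0.0995), and Slco2a1 came nearest to the threshold, at -1.61 ± 0.23 (adjusted p = 0.0517). Ptgis was at -2.23 ± 0.78 (adjusted p = 0.129) and Ptgds at 1.97 ± 0.60 (adjusted p = 0.105). The other 5 members had adjusted p between 0.33 and 0.826. With a pseudocount of 0.1 in place of 1, Slco2a1 passed, at an adjusted p of 0.0487.

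That test rests on whether the non-polyp libraries are kept, because the difference between those 2 libraries enters the error. Without the library labelled knockout non-polyp, the estimates are the same and 5 members passed, against 25.7% of all genes. They were Ptgs2 (SE 0.44, limma adjusted p = 0.00824) and Ptgds (0.00669), both higher, and Hpgd (0.00738), Slco2a1 (0.00737) and Ptgis (0.00953), all lower. Ptgds had a mean of 1.5 TPM and passed the filter on low values only through the 3 libraries in which it was high, so its call is no support for a difference. Without the wild-type non-polyp library, the same 5 passed, against 25.6% of all genes. Ptgs1, Ptges, Ptges2, Ptger2 and Ptger4 passed in neither fit. Without the library labelled knockout steady state, 0 of 10 members passed, against 0.0534% of all genes.

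For polyp minus non-polyp, 0 of 10 members passed, against 0% of all genes, and 0 had an unadjusted p under 0.05, against 2.94%. Without the library labelled knockout non-polyp, 3 members passed, against 9.07% of all genes. Hpgd was at -2.47 ± 0.48 (limma adjusted p = 0.037), Ptgis at -2.11 ± 0.43 (adjusted p = 0.0415) and Ptgds, under the same limit of the filter, at 1.84 ± 0.33 (adjusted p = 0.0322), while Ptgs2 was at 2.33 ± 0.57 (adjusted p = 0.0642). In that fit non-polyp tissue is the wild-type library alone, which is assumed to vary like the other groups. In the single pair of wild-type polyp and non-polyp, 2 members were at least 2-fold higher, against 9.14% of all genes, and 3 were at least 2-fold lower, against 9.8%. The former were Ptgs2 and Ptgds, and the latter Ptgs1, Hpgd and Ptgis. In the knockout pair, 0 of 10 were 2-fold apart, against 2.87% of all genes.

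For non-polyp minus steady state, 0 of 10 members passed, against 0.326% of all genes, with 2 members at an unadjusted p under 0.05, against 16.5%. Slco2a1 was at -1.55 ± 0.24 (limma adjusted p = 0.0818) and Ptgs2 at 2.46 ± 0.95 (adjusted p = 0.28). The latter joins a wild-type library 1.67-fold above steady state and a library labelled knockout 25.0-fold above it. Without the wild-type non-polyp library, non-polyp tissue is the library labelled knockout alone, which stood close to the knockout polyp library. The differences were then 4.13 for Ptgs2, -3.045 for Hpgd and -1.66 for Slco2a1. Without the library labelled knockout non-polyp, which leaves the wild-type one alone, they were 0.78 for Ptgs2, -0.25 for Hpgd and -1.45 for Slco2a1.

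For DSS minus steady state, 0 of 10 members passed, against 0% of all genes. All had an unadjusted p above 0.05, compared with 904 of the 16855 genes (5.36%) below it. Ptgs2 was at -0.34 ± 0.95 (limma adjusted p = 0.98), Hpgd at -0.18 ± 0.79 (adjusted p = 0.99) and Ptges at -0.35 ± 0.34 (adjusted p = 0.915). Without the library labelled knockout non-polyp, 0 members passed, against 0% of all genes. In wild type, 0 of the 10 genes were at least 2-fold apart between DSS and steady state, against 6.46% of all genes. In the knockout pair 0 were, against 9.18%. On the log2(TPM + 1) scale the largest of these differences was that of Ptgis, at 15.5 TPM in the library labelled knockout steady state and 8.63 TPM in knockout DSS. With SEs of 0.23 to 0.95 log2 units over the 10 genes, the test does not show that these genes did not respond at day 12.

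Genotype was compared as knockout minus wild type over all stages, the question of the DCIR design. Here 0 of 10 members passed with limma, against 0% of all genes, and 0 had an unadjusted p under 0.05, compared with 736 of 16855 genes (4.37%). Ptgs2 was at 1.02 ± 0.67 (adjusted p = 0.705) and Hpgd at -0.99 ± 0.56 (adjusted p = 0.705), and the smallest difference was that of Ptger2, at -0.03 ± 0.28 (adjusted p = 0.975). Without the library labelled knockout steady state 0 members passed, against 0.00593% of all genes, and without the one labelled knockout non-polyp 0 passed, against 0%. In the latter fit Ptgs2 was at 0.19 and Hpgd at -0.29 (limma adjusted p = 0.988 for both), so the pooled estimates rest largely on the non-polyp pair. Leaving out either DSS library moved Ptgs2 to 1.54 and Hpgd to -1.51 (adjusted p = 0.469 for both).

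Stage by stage, the genotypes were compared in single pairs of libraries. At steady state 0 of 10 members were at least 2-fold apart, against 4.77% of all genes, and after DSS 0 were, against 4.66%. With shares this low, 0 of 10 does not set these genes apart from the rest. In polyps 1 member was at least 2-fold higher in knockout, against 3.67% of all genes, and 1 was at least 2-fold lower, against 2.24%. They were Ptgs2, 2.35-fold higher (log2 difference 1.20), and Hpgd, 2.17-fold lower (log2 difference -1.08). Slco2a1 was 1.63-fold higher in knockout polyp and the other synthases and receptors differed by less than 2-fold. These are single libraries with no replicate check.

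The knockout polyp also held more mast cell transcripts than the wild-type polyp, with a list of 10 markers summing to 3032 against 617 TPM, and fewer goblet cell transcripts, with 7 measured markers summing to 2284 against 7333 TPM. The colonocyte list summed to 860 against 1233 TPM. Their part in the Ptgs2 and Hpgd differences was not tested.

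In non-polyp tissue, 2 members were at least 2-fold higher in the library labelled knockout, against 14.7% of all genes, and 3 were lower, against 9.94%. Ptgs2 was 13.3-fold and Ptgds 25.3-fold higher, and Hpgd was 8.87-fold, Ptgis 15.9-fold and Ptgs1 2.66-fold lower. The Ptgds ratio is to 0.181 TPM, and on the log2(TPM + 1) scale Ptgds was 2.24 higher, against 3.54 for Ptgs2. The log2 difference of Ptgis was -2.89 in the annotated rows and -1.36 with the assembled loci. The same library differed from the knockout polyp by less than 2-fold in all 10 members.

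**Figure D4:**
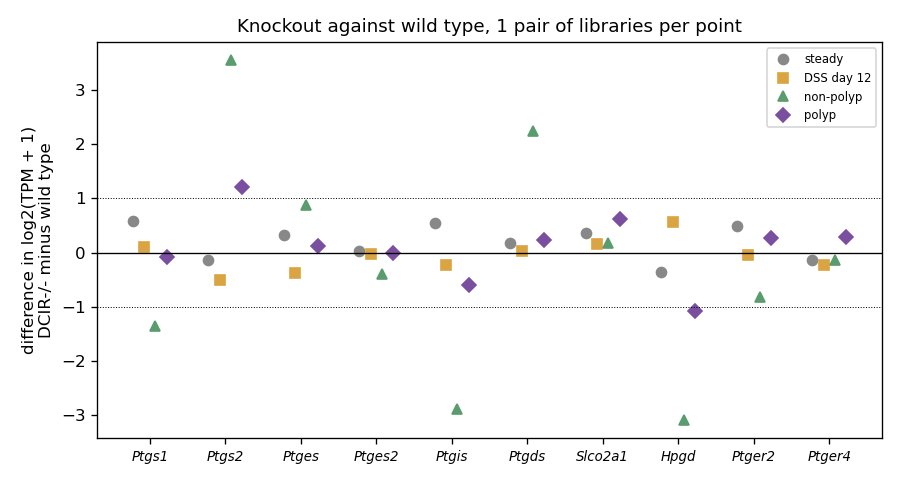
Difference in log2(TPM + 1) between the library labelled knockout and the wild-type library of the same stage, for the 10 genes, 1 symbol per stage, with dotted lines at 2-fold. Points of non-polyp tissue reach 3.54 for Ptgs2 and -3.09 for Hpgd, polyp points 1.20 and -1.08, and steady-state and DSS points stay inside the dotted lines.

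Several lists of cell type markers moved with these genes between stages. The 10 absorptive colonocyte markers, all of them lower in both polyp libraries than in every steady-state and DSS library, summed to 860 to 1233 TPM in polyps against 3631 to 6019 TPM in those 4 libraries. The 8 smooth muscle markers were all lower as well, at 469 to 756 TPM in polyps against 5822 to 6977 TPM. The 8 endothelial markers did not move together. They summed to 135 to 142 TPM in polyps against 94.4 to 167 TPM, with 2 genes higher and 1 lower. Of 10 WNT target and crypt stem cell markers 9 were higher in both polyps, where they summed to 1660 to 1703 TPM against 79.5 to 164 TPM. Of 10 mast cell markers 9 were higher, at 617 to 3032 TPM against 34.6 to 103 TPM, and all 8 neutrophil markers were higher, at 539 to 567 TPM against 6.20 to 247 TPM. How many of all genes separate in this way was not counted, so these counts only describe the lists. The library labelled knockout non-polyp was at 887 TPM for colonocytes, 747 TPM for smooth muscle, 1968 TPM for WNT targets and 3712 TPM for mast cells. The part of cell composition in the Hpgd, Ptgis, Ptgs2 and Ptgds differences was not tested, and in bulk tissue fewer cells of a type and less RNA per cell cannot be told apart.

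The genes whose levels ran most like Hpgd over the 8 libraries, among 12374 with a mean of at least 5 TPM, were Slc39a5, Gm5485, Dhrs11, Sult1c2 and Naprt. Slc39a5, a zinc transporter gene, lay at 49.8 to 74.0 TPM in steady state and DSS, at 25.4 TPM in wild-type polyp and at 16.3 TPM in knockout polyp. Those most like Ptgs2 were Gm26809, Sema4c, Nr4a2, Hdac2 and Suz12. Nr4a2, the gene of a nuclear receptor induced as an immediate early gene, was at 1.96 to 2.82 TPM in steady state and DSS, at 9.53 TPM in wild-type polyp and at 19.6 TPM in knockout polyp. Those most like Ptgds were Gm37092, Nkd1, Prox1, Siglec15 and Gulo, with Nkd1, a WNT target gene, at 243 TPM in wild-type polyp and 337 TPM in knockout polyp against 13.3 to 18.9 TPM in steady state and DSS. Those most like Ptges included Mpeg1, Tex261, Sh3gl1 and Cndp2, with Mpeg1, a macrophage gene, ranging from 26.2 TPM in wild-type non-polyp tissue to 60.8 TPM in the library labelled knockout steady state. Likeness was measured by Pearson correlation, and every one of these genes had a coefficient of 0.974 or more. The 8 libraries fall into separate ranges, so the coefficient serves only to choose these genes.

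Upstream of the cyclooxygenases, the Pla2g2a transcript showed the largest difference of the wider pathway between polyps and steady state. The release of arachidonic acid was not measured. Pla2g2a, a secreted phospholipase A2 that is active in BALB/c strains, lay at 12.4 TPM for wild type and 21.5 TPM in the library labelled knockout at steady state, and at 162 TPM and 91.5 TPM for wild type and for knockout after DSS. Wild-type non-polyp tissue was at 631 TPM, the library labelled knockout non-polyp at 18377 TPM, wild-type polyp at 18173 TPM and knockout polyp at 19433 TPM. It was 10.08 ± 1.27 higher on the log2 scale in polyp than at steady state (SE, limma adjusted p = 0.0473) and passed in 3 of 13 alternative fits.

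Of the 12 measured other genes of arachidonic acid release and PGE2 synthesis and transport, Pla2g2a alone passed for polyp minus steady state, against 0.819% of all genes. The median log2 difference was 0.46, against -0.08 over all genes. Without the library labelled knockout non-polyp, 5 passed as higher and 4 as lower, against 25.7% of all genes in either direction. Those higher included Abcc4, which exports prostaglandins from cells, at 1.97 ± 0.20 (limma adjusted p = 0.00392), Ptgr1, a prostaglandin reductase, at 1.55 ± 0.18 (adjusted p = 0.00509), and Pla2g12a, another phospholipase, at 1.19 ± 0.31 (adjusted p = 0.0417). Ptges3, a further PGE synthase gene, was also among those higher, at 0.78. Those lower were the phospholipase genes Pla2g10, at -1.11, and Pla2g4a, at -0.96, with Fam213b at -1.08 and Cbr1 at -0.68. Abcc4 was at 33.0 TPM in wild-type polyp and 39.6 TPM in knockout polyp, against 6.28 to 9.48 TPM in steady state and DSS and 5.48 TPM in wild-type non-polyp tissue.

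Of 6 synthases and reductases of other prostanoids, 0 passed for polyp minus steady state (limma), against 0.819% of all genes, with a median of -0.41. With the library labelled knockout non-polyp left out, 2 passed as lower, against 25.7% of all genes in either direction, and without the wild-type one 1 did, against 25.6%. The 2 were Akr1b3, an aldose reductase able to make PGF2-alpha, at -1.22 ± 0.17 (limma adjusted p = 0.00807), and Cbr3, a carbonyl reductase, at -1.04 ± 0.28 (adjusted p = 0.0478), whose adjusted p was 0.0522 without the wild-type library. Tbxas1, the thromboxane synthase gene, was at 5.93 TPM in wild-type polyp against 0.302 TPM in wild-type non-polyp tissue, but at 3.36 TPM in wild-type steady state.

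Of 9 other prostanoid receptor genes, 6 were abundant enough to test and 0 passed, against 0.819% of all genes, with a median of -0.70. After leaving out the library labelled knockout non-polyp, 3 passed as lower, against 25.7% of all genes in either direction, and without the wild-type one 2 did, against 25.6%. Ptger3, which encodes the EP3 receptor, lay at 8.77 to 11.9 TPM in steady state and DSS and at 5.59 TPM in wild-type non-polyp tissue. It was at 0.363 TPM in wild-type polyp, 0.128 TPM in knockout polyp and 0.25 TPM in the library labelled knockout non-polyp. Ptger3 passed the filter on low values only through the libraries in which it was high, so its call is no support for a difference. Its difference from steady state in that fit was -3.01 ± 0.28 (limma adjusted p = 0.00324). Tbxa2r, the thromboxane receptor gene, was at -1.43 ± 0.38 (adjusted p = 0.0445), and Ppard, a nuclear receptor gene, at -0.85 ± 0.24 (adjusted p = 0.0494). The adjusted p of Ppard was 0.051 without the wild-type non-polyp library instead. In polyps Ppard was at 45.1 TPM for wild type and 20.0 TPM in knockout.

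Lipoxygenases turn the same arachidonic acid into leukotrienes and hydroxy acids, and the last list holds 4 of them with other leukotriene enzymes and receptors. Of its 11 genes, 10 were tested and 0 passed for polyp minus steady state, against 0.819% of all genes, with a median of 0.37. In the fit without the library labelled knockout non-polyp, 3 passed as higher, against 25.7% of all genes in either direction. Alox15 was at 176 TPM in wild-type polyp and 130 TPM in knockout polyp against 2.03 to 7.93 TPM in steady state and DSS and 1.28 TPM in wild-type non-polyp tissue, a log2 difference from steady state of 4.68 ± 0.40 (limma adjusted p = 0.00271). Alox12 was at 34.6 TPM and 59.2 TPM in the polyps of wild type and knockout against 0.541 to 3.26 TPM, a log2 difference of 3.97 ± 0.57 (adjusted p = 0.00838). Alox12e, an epidermal lipoxygenase gene, was at 2.28 TPM in wild-type polyp and 5.13 TPM in knockout polyp, and at most 0.0792 TPM in steady state and DSS. It passed the filter on low values, with a mean of 1.41 TPM, only through the libraries in which it was high, so its call among the 3 is no support for a difference. Between the genotypes in polyps, Alox5, which starts leukotriene synthesis, was at 9.12 TPM in knockout against 3.74 TPM in wild type. It is also on the list of 8 tuft cell markers. Of these, 3 were higher and 3 lower in both polyp libraries than in all steady-state and DSS libraries. This split was not counted over all genes. Which cells held the Alox5 transcript was not tested.

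**Figure D5:**
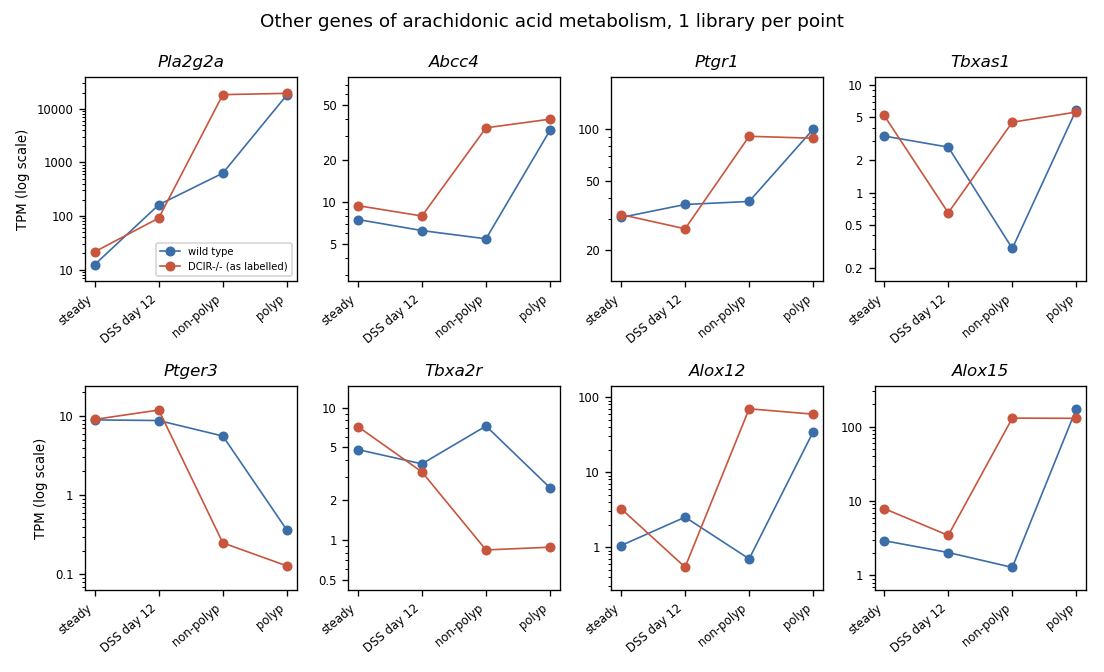
Level in TPM (vertical axis, log scale, its range set per gene) of 8 other genes of arachidonic acid metabolism at the 4 stages, 1 library per point, coloured by genotype as labelled, with lines joining libraries of 1 genotype. Pla2g2a, Abcc4, Ptgr1, Alox12 and Alox15 are higher, and Ptger3 and Tbxa2r lower, in both polyp libraries than in all steady-state and DSS libraries.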

How the data were processed

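Total RNA of colon and polyps was prepared for sequencing with a NEBNext Ultra kit, per the labels' protocols. The authors deposited coverage, a signal per base, with FPKM and TPM per gene, per the file headers. StringTie and the build GRCm38 (mm10) are named in the submitters' processing notes, and no source used here gives the aligner or versions. In 6 files the TPM column holds annotated genes followed by assembled loci, whose TPM sums to 1000000. The annotated rows were used. Depth was read from the most common ratio of coverage to FPKM, and read counts are unknown, so no counting interval is given. Left out were 13 genes with several rows and 10 whose TPM and FPKM departed from the library's fixed ratio by over 0.1%.

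Groups came from the sample titles. Tests used limma 3.58.1 in R 4.3.3 with its intensity trend on log2(TPM + 1), which understates changes of low genes, for the genes that averaged 1 TPM or more. The model held stage and genotype and left 3 residual degrees of freedom. Single pairs were compared by log2 difference, called at 2-fold, with no test. The fit was checked on simulated data. Ratios between libraries are of TPM. All 10 genes are described in every library. Genes named from a wider list, apart from Ptges3, are among its 4 of largest difference in a comparison. For 4 members the text names the 5 genes most correlated over the libraries. One gene that this rule names is not reported here. The genes and lists were chosen with earlier results of these data known. Alternatives were another pseudocount, no filter, FPKM, median-of-ratios rescaling, no trend, and leaving out each library. Reading assembled loci was added after seeing the data.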

Additional observations from a re-analysis of the deposited data

Results flagged for a closer look

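With 1 library per group, outlying samples within a group were not searched for. The results here were picked because a log2 difference had opposite signs, of at least 0.5 each, in 2 genotypes or at 2 stages. None of these differences between differences was tested.

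From non-polyp to polyp, Ptgs2 was 1.82 higher in wild type and 0.51 lower between the libraries labelled knockout, which is a difference of -2.34 between genotypes. From steady state to non-polyp tissue, Ptgs1 was 0.91 higher in wild type and -1.03 in the libraries labelled knockout (difference -1.94), and Ptger2 was 0.64 higher in wild type and -0.67 in those labelled knockout (difference -1.31).

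Knockout minus wild type changed sign between stages in 3 further genes and in Ptgs1. Between DSS and polyp, Ptgs2 went from -0.51 to 1.20 (difference 1.72) and Hpgd from 0.56 to -1.08 (difference -1.64). Neither value involves a library whose label is in doubt. Between steady state and polyp, Ptgis went from 0.55 to -0.59 (difference -1.14) in the annotated rows. With the assembled loci, which have unlike spans in the polyp libraries, it was 0.54 in polyps, with no change of sign. Against the non-polyp pair, Ptgs2 differed by 4.05 and Hpgd by -3.65 from their DSS values, and Ptgis by -3.44 and Ptgs1 by -1.94 from their steady-state values.

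The assembled loci, which no test used, gave over 1.5 times the annotated level in 5 cases. Slco2a1 was at 39.0 TPM against 25.8 in the library labelled knockout steady state. Ptgis was at 4.14 TPM against 0.751 in the library labelled knockout non-polyp, at 4.18 against 2.58 in wild-type polyp and at 6.54 against 1.37 in knockout polyp. Ptges2 was at 19.4 TPM against 10.8 in wild-type polyp.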

How the results depend on the processing

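No paired analysis was possible because the groups compared share only 1 replicate number. The model already compares stages within genotype. Directions and calls of the members were the same in 591 of the refitted contrasts, newly passed the threshold in 19 and turned in 40. Of the differences in single pairs, 403 moved by less than the residual SD and 40 by more. The count of genes called was 13 for non-polyp minus steady state and 15 for polyp minus steady state with no filter on low values. For polyp minus steady state it was 58 with FPKM, 73 after rescaling and 79 with no trend, and for polyp minus non-polyp 1 with FPKM. For non-polyp minus steady state, FPKM and rescaling turned Ptgs1 to 0.064 and 0.061, Ptges2 to 0.029 with both and Ptger2 to 0.061 and 0.075.

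Leaving out 1 library at a time gave 0 to 1 genes for genotype, 9 to 2238 for non-polyp minus steady state, 0 to 1529 for polyp minus non-polyp and 0 to 4340 for polyp minus steady state. The last was 4312 without wild-type non-polyp, 4340 without the library labelled knockout non-polyp, 0 without either polyp library, 9 without either steady-state library, and 43 and 44 without wild-type and knockout DSS. Without 1 non-polyp library the other is fitted exactly, so their difference leaves the error. The log2 differences that turned ranged, for genotype, over Ptgs1 -0.45 to 0.197, Ptger2 -0.201 to 0.236 and Ptger4 -0.167 to 0.003. For DSS they ranged over Ptgs1 -0.498 to 0.537, Ptgs2 -1.368 to 0.682, Ptges -0.758 to 0.054, Hpgd -1.219 to 0.852, Slco2a1 -0.107 to 0.127, Ptger2 -0.552 to 0.14, Ptgis -1.29 to 0.492 and Ptgds -0.522 to 0.337. For non-polyp minus steady state they ranged over Ptgs1 -0.834 to 0.72, Ptges -0.744 to 0.115, Ptges2 -0.275 to 0.108 and Ptger2 -0.543 to 0.511. For polyp minus non-polyp they ranged over Ptgs1 -1.25 to 0.304, Ptgs2 -1.023 to 2.333, Hpgd -2.468 to 0.324, Slco2a1 -0.25 to 0.14, Ptger2 -0.898 to 0.156, Ptgis -2.111 to 0.692 and Ptgds -0.261 to 1.837. No member turned in polyp minus steady state in any refit. For genotype, Ptgs2 ranged from 0.186 to 1.537 and Hpgd from -1.509 to -0.293.

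With the assembled loci, the log2 difference between polyp and steady state was -2.22 for Slco2a1 in wild type, -2.05 for Slco2a1 in knockout and -1.17 for Ptgis in knockout, and Ptgis in polyps was 0.54 higher in knockout. The assembled Ptgis locus of knockout polyp spans less of the gene than the loci it is compared with. Ptges2 in wild-type polyp turned to 0.325 against non-polyp tissue and 0.450 against steady state. The cause of these shifts was not tested.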
